A study of Homo sapiens with 2 samples.

Results

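Heterogeneous nuclear ribonucleoproteins (hnRNPs) are abundant nuclear proteins that bind pre-mRNA as it is made and take part in splice-site choice, export, stability and translation of the mRNA. Many hnRNP genes also regulate their own transcripts through alternative splicing. Described here are 5 hnRNP genes, Hnrnpa2b1, Hnrnph1, Hnrnph2, Hnrnpd and Hnrnpu, of 3764 genes in the deposited table, picked by symbol. They were picked with their counts and ratios in view, so their values are given as a description with no test.

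The libraries came from HepG2, a human hepatocellular carcinoma cell line, with no treatment. One library was from cells carrying a vector, with the genotype labelled WT. The other was from cells in which SCRN1 (secernin 1) had been knocked out by CRISPR-Cas9. The sources used here do not say whether the knockout cells are 1 clone. Each group has 1 library, so the differences lack replicates, and the exact 95% intervals given here reflect counting error alone.

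All 3764 genes carry mouse Ensembl identifiers, symbols and positions, while the labels give a human cell line and the submitters' processing notes the build GRCh38. The summed counts were 178421 (vector) and 163644 (knockout). Scrn1 was not among the listed genes, so the knockout could not be checked, and the hepatocyte genes Alb, Apoa1, Afp and Hnf4a were not listed either.

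Hnrnph1 and Hnrnph2 encode close paralogs that bind runs of guanines in RNA, and human HNRNPH2 is tagged as a retrogene in GENCODE 29. Their human coding sequences are shown because the likeness of the paralogs bears on how reads could be divided between them. Both coding sequences are 1347 bases long, and 1180 bases (87.6%) were identical. HNRNPH2 has its whole coding sequence in 1 exon on chromosome X, and HNRNPH1 has its in 12 exons on chromosome 5. The longest run shared without a mismatch was 50 bases. The stretches of 60 bases most alike and least alike, among those within 1 HNRNPH1 exon, are printed 5′ to 3′ on the coding strand, with capitals at the bases that differ between the paralogs.
HNRNPH1, most alike: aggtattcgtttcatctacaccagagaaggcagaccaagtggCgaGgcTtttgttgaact
HNRNPH2, most alike: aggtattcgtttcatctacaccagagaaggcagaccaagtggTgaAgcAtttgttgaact
HNRNPH1, least alike: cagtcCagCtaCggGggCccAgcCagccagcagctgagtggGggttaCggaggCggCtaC
HNRNPH2, least alike: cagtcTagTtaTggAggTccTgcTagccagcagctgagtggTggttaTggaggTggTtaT

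The most alike stretch differed at 3 of 60 bases and the least alike at 12 of 60. On GRCh38 the first lies at chr5:179621313-179621372 on the minus strand in HNRNPH1 (exon 2 of HNRNPH1-202) and at chrX:101412111-101412170 on the plus strand in HNRNPH2 (exon 2 of HNRNPH2-201). The second lies at chr5:179616154-179616213 (exon 11) and at chrX:101413201-101413260 (exon 2). These are human sequences, whereas the deposited counts are assigned to mouse genes. The mouse sequences were not used here.

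The 5 genes together took 10762 counts in vector cells and 10532 in knockout cells, which were 6.03% and 6.44% of all counts. Hnrnpa2b1 had the most counts of any gene in the table, Hnrnph1 ranked 8, Hnrnpd 11, Hnrnpu 14 and Hnrnph2 933. Per length, on the scale of the deposited FPKM, the order was Hnrnpa2b1, Hnrnph1, Hnrnpd, Hnrnpu and Hnrnph2 in both libraries. Without replicates no spread can be set against the gaps between neighbours in that order. The counts are assigned to mouse genes while the labels give a human line. What this does to ranks between genes was not tested, so the ranks are those of the deposited values only. All 5 are annotated as protein-coding, and the table gives all 5 the terms RNA binding, which 9.94% of all listed genes carry, and ribonucleoprotein complex, which 6.96% carry. Hnrnpu alone of the 5 is assigned to the spliceosome pathway in the table.

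**Figure D1:**
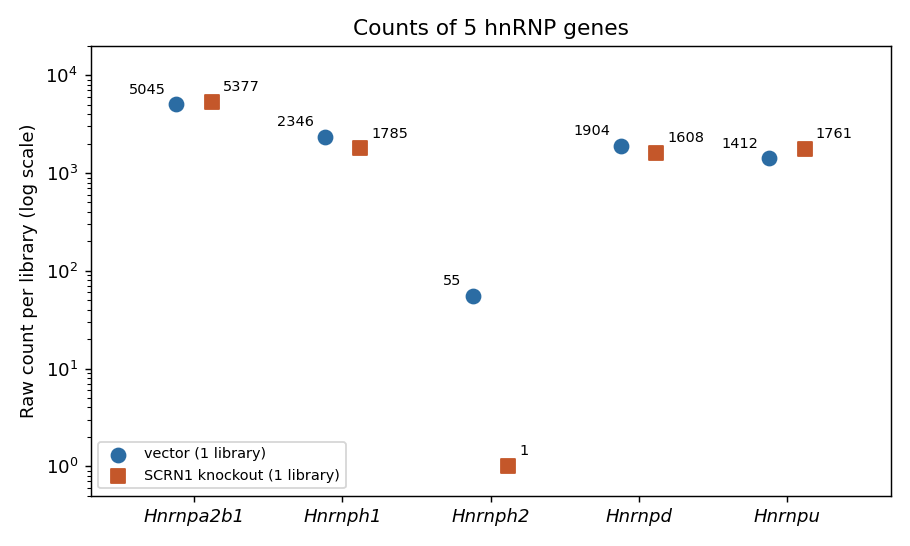
Raw counts (log scale) of the 5 hnRNP genes in the vector library (circles) and the SCRN1 knockout library (squares), 1 library each. Hnrnph2 is at 55 and 1, while the other 4 genes lie at 1412 or more in both libraries.

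Of the 5 genes, Hnrnph2 had the ratio farthest from equality. Its count was 55 in vector cells and 1 in knockout cells, or 306 and 6.16 on the CPM scale, which divides a count by the scaled library total. The knockout value lies under the 18.5 CPM that a count of 0 would allow, taking 3 counts as the floor. The knockout over vector ratio was 0.0201 (0.000500 to 0.117), so that the level was 49.7-fold lower after the knockout (8.56 to 1998). The deposited FPKM was 29.5 with the vector and 0.585 after the knockout. In bulk RNA, less transcript per cell and fewer cells with the transcript cannot be told apart. Hnrnph2 reached the filter of 20 counts through the vector library alone.

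Its paralog Hnrnph1 did not show a gap of that size. The count of Hnrnph1 was 2346 in vector cells and 1785 in knockout cells, giving a ratio of 0.842 (0.791 to 0.896), and its FPKM was 1046 and 868. Hnrnph2 made up 2.29% of the Hnrnph1 plus Hnrnph2 counts with the vector (exact binomial interval 1.73 to 2.97) and 0.0560% after the knockout (0.00142 to 0.312). The change in Hnrnph1 relative to Hnrnph2, which does not depend on the scaling of the libraries, was 41.8-fold (7.19 to 1684). The sources used here do not say how reads shared between the paralogs were counted, and the part of read assignment in the Hnrnph2 difference was not tested.

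The other genes of the H/F type, whose proteins also bind guanine runs, were nearer to equality. Hnrnph3 was counted 693 times in vector cells and 574 times in knockout cells, giving a ratio of 0.917 (0.819 to 1.03). For Hnrnpf the counts were 17 and 18, with a ratio of 1.17 (0.570 to 2.42). The 4 genes pooled had 3111 and 2378 counts, a ratio of 0.846 (0.802 to 0.893), most of which is Hnrnph1. In the human coding sequences, HNRNPF was 77.6% identical to HNRNPH1 and HNRNPH3 was 69.5% identical to it over the aligned bases, both less than HNRNPH2.

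Hnrnpa2b1 encodes the A2 and B1 proteins, splice forms that bind RNA through RNA recognition motifs and serve in splicing and RNA transport. Its count was 5045 in vector cells and 5377 in knockout cells, giving a ratio of 1.18 (1.13 to 1.23). It made up 2.83% of all counts with the vector and 3.29% after the knockout, and its FPKM was 2623 and 3049. Its interval lay above equality, but the ratio was below the 2-fold limit used for calls.

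Hnrnpd encodes AUF1, which binds AU-rich elements in the 3′ untranslated regions of mRNAs and is known for its part in their decay. Its count was 1904 in vector cells and 1608 in knockout cells, giving a ratio of 0.935 (0.874 to 0.999), and its FPKM was 842 and 776. The upper bound lay just below equality, and with upper-quartile factors the interval of the ratio (0.942) ran from 0.881 to 1.007.

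Hnrnpu encodes the scaffold attachment factor SAF-A, which binds both RNA and chromatin. Its count was 1412 in vector cells and 1761 in knockout cells, giving a ratio of 1.38 (1.29 to 1.48), and its FPKM was 547 and 743. Among the 54 genes with at least 1000 summed counts, Hnrnpu had the highest ratio. Hnrnpa2b1 ranked 7 of these 54 from the highest, Hnrnpd 39 and Hnrnph1 50. The log2 ratios of the 54 genes ran from -0.57 to 0.46, with a median of 0.05 and quartiles of -0.12 and 0.17. The 4 abundant hnRNP genes ran from -0.25 for Hnrnph1 to 0.46 for Hnrnpu, and Hnrnpa2b1 (0.24) and Hnrnph1 lay outside the quartiles on opposite sides.

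By the 2-fold rule, 1 of the 5 genes was lower in the knockout library, Hnrnph2, and 0 were higher. Of all 1588 genes with at least 20 counts, 62 (3.90%) were lower and 53 (3.34%) were higher by the same rule. With median-of-ratios scaling, which came out equal for both libraries and so left the counts unscaled, the table split into 89 lower and 42 higher, while the calls for the 5 genes were again 1 and 0. With a limit of 5 to 4 in place of 2-fold, Hnrnpu was higher and Hnrnph2 lower, where 7.37% of all compared genes were higher and 6.68% lower. When the interval alone had to exclude equality, 3 of the 5 genes were lower and 2 higher, where 7.81% of all compared genes were lower and 8.69% higher. Intervals narrow with depth, and of the 54 genes with at least 1000 counts 50.0% excluded equality. Since the genes were chosen with these values known, nothing is read from the counts of members.

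**Figure D2:**
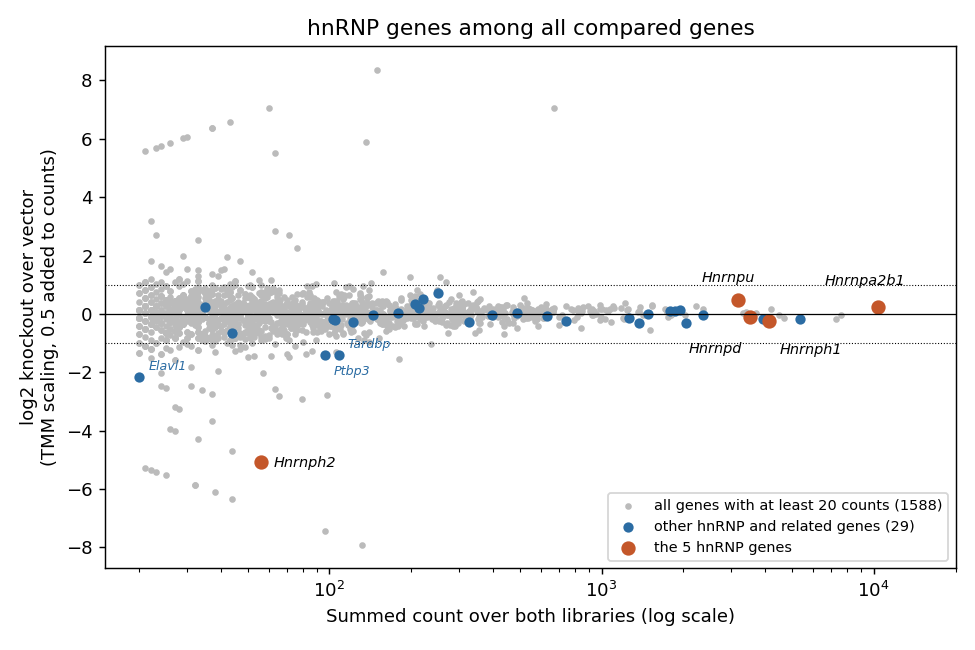
The log2 ratio of knockout over vector (vertical axis, TMM scaling, 0.5 added to counts) against the summed count over both libraries (horizontal log axis) for 1588 genes. Grey points are all genes, blue points 29 other hnRNP and related genes and red points the 5 hnRNP genes; dotted lines mark 2-fold. Hnrnph2 lies at 56 counts far below the lines, and the 4 abundant genes lie between them.

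Hnrnph2 was set beside genes of like depth. Of 432 genes with 40 to 80 summed counts, 3 had at most 1 count in the knockout library, Hnrnph2 among them, and 3 had at most 1 count in the vector library. Together these were 1.39% of the 432 genes. The window and the limit of 1 count were set around the counts of Hnrnph2, which were already known. The share is therefore a description with no test.

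Ratios between the 5 genes do not depend on scaling, and they are given as a description of these 2 libraries, with intervals for counting error. Hnrnpu over Hnrnph1 was 1.64-fold higher after the knockout (1.49 to 1.80). Hnrnpu over Hnrnpd was 1.48-fold higher (1.34 to 1.63), and Hnrnpa2b1 over Hnrnph1 was 1.40-fold higher (1.302 to 1.51). Among the 10 pairs the ratio nearest to equality was that of Hnrnpd over Hnrnph1, at 1.11-fold (1.013 to 1.22). Of the counts of the 5 genes, Hnrnpa2b1 took 46.9% in vector cells and 51.1% in knockout cells, and Hnrnpu took 13.1% and 16.7%. Hnrnph1 took 21.8% and 16.9%, and Hnrnpd 17.7% and 15.3%. Pooled, the 5 genes had a ratio of 1.08 (1.05 to 1.11), which became 0.998 (0.961 to 1.04) without Hnrnpa2b1 and 0.979 (0.953 to 1.005) with median-of-ratios scaling. The direction of the pooled value therefore rests on Hnrnpa2b1 and on the scaling.

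**Figure D3:**
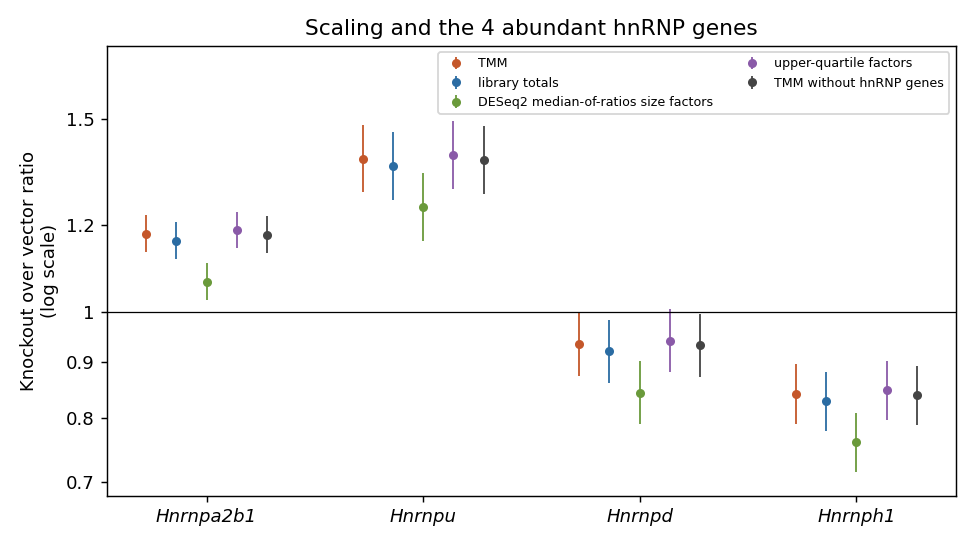
Knockout over vector ratio (log scale) of the 4 abundant hnRNP genes under 5 scalings, with 95% exact intervals for counting error. Hnrnpu and Hnrnpa2b1 lie above 1 and Hnrnph1 and Hnrnpd below 1 with each scaling. Median-of-ratios scaling gives the lowest value for each gene, with 1.247 for Hnrnpu.

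A list of 36 other hnRNP and related RNA-binding genes had 31 listed genes, of which 29 had at least 20 counts. By the 2-fold rule 3 of the 29 were lower in the knockout library, 0 were higher and 26 were not called, against the 3.90% and 3.34% of all compared genes. The median log2 ratio of the list was -0.06, beside 0.03 for all compared genes. With median-of-ratios scaling these medians were -0.20 and -0.12. The list is given as a description, with no test.

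Tardbp, which encodes TDP-43, a repressor of cryptic exons that contacts several hnRNPs, went from a count of 81 in vector cells to 27 in knockout cells, a 2.71-fold lower level (1.73 to 4.36). Ptbp3, a polypyrimidine tract binding protein gene, went from 72 to 24 counts, again 2.71-fold lower (1.69 to 4.50). Elavl1, which encodes HuR, a protein that stabilizes mRNAs with AU-rich elements, went from 17 to 3 counts, 5.12-fold lower (1.48 to 27.3), with a summed count at the filter itself. All 3 have far fewer counts than the abundant hnRNP genes.

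Among the genes grouped here as A/B type, Hnrnpa1 had 969 and 970 counts (ratio 1.11, 1.012 to 1.21). Hnrnpa3 had 96 and 125 counts (1.44, 1.10 to 1.90). Hnrnpab (0.965) and Hnrnpa0 (0.822) had intervals that held equality. Hnrnpdl, a relative of Hnrnpd, had 337 and 293 counts, a ratio of 0.962 (0.820 to 1.13). The relatives of Hnrnpu were sparser. Hnrnpul1 had 28 and 16 counts (0.632, 0.320 to 1.21) and Hnrnpul2 had 57 and 46 (0.893, 0.592 to 1.34), so neither showed a ratio above 1 like that of Hnrnpu, although their intervals reach 1.21 and 1.34.

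Hnrnpl, whose protein binds CA repeats, had the highest ratio of the 29, with 101 and 150 counts (1.64, 1.27 to 2.14). The genes Syncrip (0.813, 0.744 to 0.888), which encodes hnRNP Q, and Rbmx (0.799, 0.716 to 0.891), which encodes hnRNP G, were at the other end of the abundant genes. Pcbp2 had 2958 and 2396 counts (0.896, 0.849 to 0.946) and Matr3 had 2168 and 1755 (0.896, 0.841 to 0.954). Taf15 had 420 and 320 counts (0.843, 0.727 to 0.978). Hnrnpll, Hnrnpm, Hnrnpr, Hnrnpk, Pcbp1, Fubp1, Fubp3, Ptbp2, Sfpq, Nono and Ewsr1 had intervals that held equality, with ratios from 0.833 for Nono to 1.255 for Ptbp2. Raly, Ralyl, Pcbp3, Pcbp4 and Ptbp1 were not listed.

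**Figure D4:**
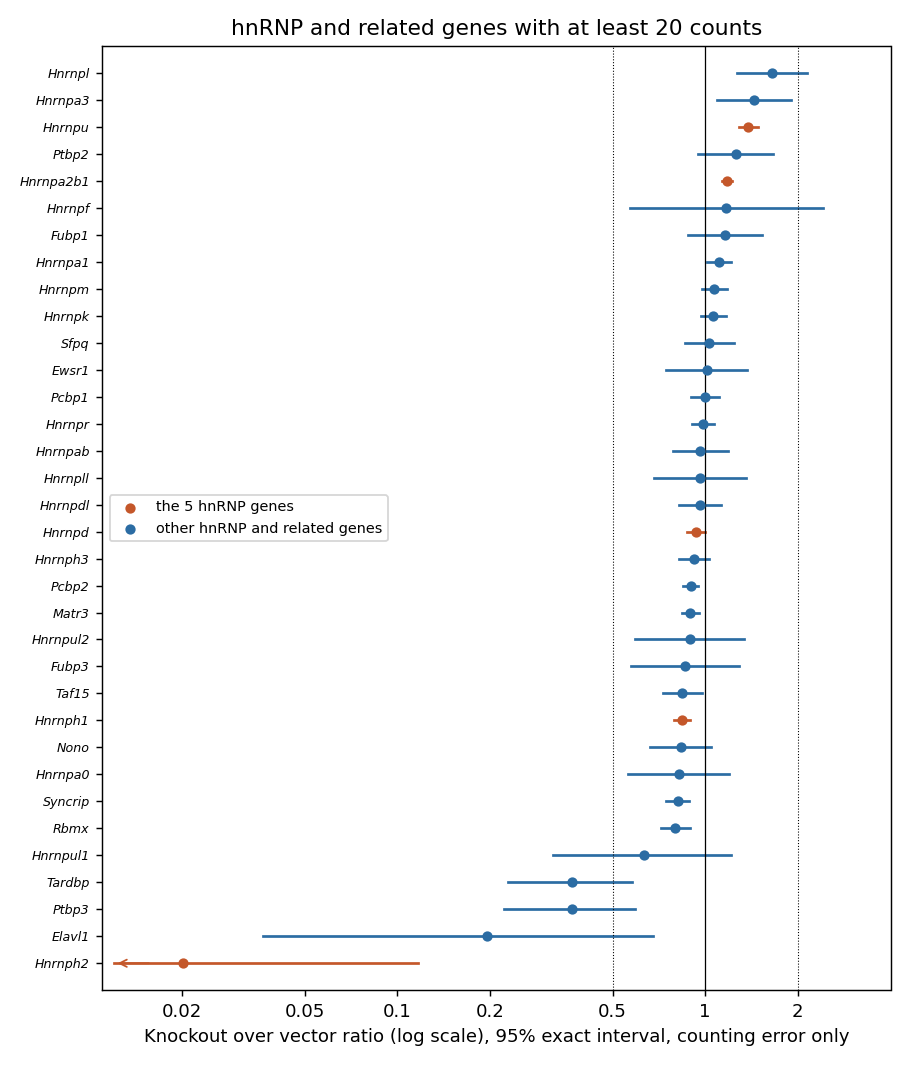
Knockout over vector ratio (horizontal log axis) with its 95% exact interval for the 5 hnRNP genes (red) and 29 other hnRNP and related genes (blue), ordered by ratio. Dotted lines mark 2-fold and the arrow an interval that goes on beyond the axis. Hnrnpl is at the top with 1.64, and Elavl1, Ptbp3, Tardbp and Hnrnph2 are at the bottom, below 0.5.

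SR proteins bind exonic enhancers and often act against hnRNPs at splice sites. Of 13 SR genes, 12 were listed and had at least 20 counts. By the 2-fold rule 0 of the 12 were called in either direction, where 3.90% of all compared genes were lower and 3.34% higher. The median log2 ratio of the 12 SR genes was 0.11, beside 0.03 for all compared genes. With median-of-ratios scaling these medians were -0.04 and -0.12. The most abundant were Srsf1, with 857 and 860 counts (1.11, 1.009 to 1.22), and Srsf10, with 533 and 541 (1.12, 0.995 to 1.27).

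Outside these lists, the 3 genes with at least 500 counts whose log2 ratio was closest to that of Hnrnpu were Gm4202, Zfand5 and Calu, at distances of 0.08, 0.10 and 0.11. Gm4202, a processed pseudogene, had 224 and 295 counts (1.46, 1.22 to 1.74). Zfand5 had 247 and 287 counts (1.29, 1.08 to 1.53) and Calu had 565 and 655 (1.28, 1.14 to 1.44). The likeness rests on 2 libraries and 112 candidate genes.

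Copies of the hnRNP genes limit how far the counts can be tied to a locus. The table lists 657 genes of the type processed pseudogene, and 0 of them carry the name of one of the 5 genes in their symbol or description. Of the 657, 533 have symbols that start with Gm and a number, which do not name a parent gene, so copies among them cannot be recognised by name. No listed gene overlaps any of the 5 loci. In the human annotation, 3 processed pseudogenes are named for HNRNPH1, 2 for HNRNPD, 1 for HNRNPU and 0 for HNRNPA2B1 or HNRNPH2. HNRNPUP1 was 96.4% identical to the HNRNPU transcript over 332 aligned bases, HNRNPDP1 92.3% identical to HNRNPD over 754 bases, and HNRNPH1P3 92.0% identical to HNRNPH1 over 1224 bases. Human HNRNPH2 also lies partly within the annotated readthrough gene RPL36A-HNRNPH2. Rpl36a was not among the listed genes.

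The mouse positions in the table come with no named build. Hnrnpa2b1 lies on chromosome 6 from 51460932 to 51469894 and Hnrnph1 on chromosome 11 from 50376990 to 50386528. Hnrnph2 lies on chromosome X from 134601179 to 134607060, Hnrnpd on chromosome 5 from 99955935 to 99978938 and Hnrnpu on chromosome 1 from 178321108 to 178337797. The gene length implied by the deposited FPKM was 10734 bases for Hnrnpa2b1, longer than the 8963 bases from its start to its end, and 10405 bases for Hnrnph2, against 5882. For Hnrnph1 it was 12517 bases, against 9539. The FPKM levels of these 3 genes therefore rest on a length beyond the span of the locus, while knockout over vector ratios do not depend on the length. Implied lengths are on a scale where the median ratio of length to span is 1 among processed pseudogenes. Of all listed genes, 224 had an implied length more than 1% beyond the span, so this is not particular to these 3.

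The authors' deposited table gave Hnrnph2 an adjusted p of 5.60e-10, the only one of the 5 below 0.05. Across all 3764 genes, 101 were below 0.05 there. Hnrnph2 carries the mark UP because its log2 fold change of 5.66 is vector over knockout. In the authors' deposited table Hnrnpu had a p of 0.0279 and an adjusted p of 0.439, and Hnrnpa2b1, Hnrnph1 and Hnrnpd had adjusted p of 0.989 or more. Tardbp (0.00939) and Ptbp3 (0.0159) had the adjusted p below 0.05 among the other hnRNP and related genes in the authors' deposited table. When a biological coefficient of variation of 0.1 was assumed, the exact test of edgeR gave the same p-values as the authors' deposited table to within 5.22e-15, so those values rest on an assumed spread.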

How the data were processed

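The study compared HepG2 cells carrying a vector with HepG2 cells lacking SCRN1, at 1 library each, and groups follow the title and genotype in the labels. Per the labels' protocols, mRNA was separated from DNase-treated total RNA and made into fragmented cDNA libraries. The submitters' processing notes list HISAT2 2.0.4, bcl2fastq 2.19, StringTie 1.3.0 and GRCh38. The authors deposited raw counts per gene and, per the file headers, FPKM values that divide them by gene length and library size. The sources used here do not name the mouse build, the counter, the strand setting or the gene lengths. The deposited log2 fold change is vector over knockout, and the deposited p-value and adjusted p set 1 library against 1.

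TMM factors from edgeR 4.0.16 (R 4.3.3), fitted on the whole table, scaled the library totals. Each ratio of knockout over vector has a 95% Clopper-Pearson interval of its conditional binomial share, which covers counting error only. A gene with 20 or more summed counts was called when its ratio was 2 or higher, or 0.5 or lower, and the interval did not hold 1. Group medians are on the log2 scale with 0.5 added to each count. The quasi-likelihood test needs residual spread and could not be fitted with 1 library per group. Ratios between genes are conditional odds ratios. The interval and the call rule were tested on simulated counts with counting error only, which cannot show how they hold with biological spread. The alternatives were upper-quartile factors, DESeq2 1.42.0 size factors, library totals, TMM without hnRNP genes, and other folds and count filters. Human sequences came from GENCODE 29, with alignment in Biopython 1.88. Other software was matplotlib 3.10.9, pandas 2.3.3, SciPy 1.17.1, NumPy 2.4.6 and Python 3.11.15.

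The genes and lists were chosen with earlier results of these data known. The rule for named genes takes the 5 hnRNP genes, the other hnRNP and related genes with 20 or more counts, the SR genes called or most abundant, and the 3 genes with 500 or more counts whose ratio is closest to that of Hnrnpu. One gene of the hnRNP and related list is not reported here and was left out of that list's counts and medians.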

Additional observations from a re-analysis of the deposited data

How the results depend on the processing

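No paired analysis was possible because there is 1 library per group and the labels carry no replicate numbers, and no library could be left out. Under every scaling run, Hnrnpa2b1 and Hnrnpu stayed above equality and Hnrnph1, Hnrnpd and Hnrnph2 below it, and Hnrnph2 ranged from 0.0182 to 0.0203. Median-of-ratios scaling shifted every log2 ratio by -0.15. It gave 1.07 for Hnrnpa2b1, 0.761 for Hnrnph1, 0.845 for Hnrnpd, 1.247 for Hnrnpu and 0.979 for the pooled genes. With TMM scaling the pooled ratio was 1.08, and 0.998 for the pool without Hnrnpa2b1. With a limit of 5 to 4 in place of 2-fold, 1 of the 5 genes, 2 of the 29 other hnRNP genes and 117 of all 1588 compared genes were higher. The lower counts at that limit were 1, 4 and 106. With the interval alone, chosen after seeing the data, the higher counts were 2, 3 and 138, with 2 SR genes, and the lower counts 3, 8 and 124. With no count filter 128 of all genes were higher and 167 lower. With at least 200 counts 0 of the 5 genes and 0 other hnRNP genes were lower, since Hnrnph2, Tardbp, Ptbp3 and Elavl1 then drop out, and 3 of all genes were higher and 1 lower. With at least 1000 counts, also chosen after seeing the data, 0 of the 5 and 0 of all genes were called in either direction. Adding pseudogene counts to the 5 genes was not run, because no listed pseudogene is tied to them by name. Of all values compared, 79 stayed within their interval or within 1.5 times, and 26 moved beyond that. Those that moved include Hnrnpa2b1, Hnrnph1, Hnrnpd, Hnrnpu and the pooled genes with median-of-ratios scaling. Hnrnph2 had 1 count in the knockout library, and its ratio could lie anywhere from 0.000500 to 0.117 on counting error alone.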

Other observations

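Below the filter of 20 counts, Hnrnpc, a core hnRNP gene, was counted 1 time with the vector and 4 times after the knockout, and Khsrp, whose protein binds AU-rich elements, with 6 and 0. The interval of the knockout over vector ratio ran from 0.438 to 218 for Hnrnpc, which holds equality, and from 0 to 0.940 for Khsrp, which lies below it.

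Besides Hnrnph2, the genes with 40 to 80 summed counts and at most 1 count in a library were Flot2 (44 with the vector and 0 after the knockout) and Ccdc47 (43 and 1), lower in the knockout library, and Uba1 (0 and 60), Gm14686 (1 and 62) and Ccnc (0 and 43), higher in it. They were named after their values were seen.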
